A study of Mus musculus with 2 samples.

Results

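Endothelial cells (ECs) of the postnatal mouse heart carrying the iSuRe-HadCre allele were compared with ECs of control hearts, gene by gene. The cells were found in 1 pooled single-cell RNA-seq library by the hashtag, an antibody-borne barcode, that each group had received before pooling. A cell was taken when it passed the quality limits, expressed Cdh5 above the set limit, held at least 25 counts of its own hashtag and stayed below the minimum of the other 5 assigned hashtags. This gave 311 iSuRe-HadCre heart ECs and 254 control heart ECs, 565 in all, of 14350 barcodes within the quality limits and of 1988 cells that the same rule assigned to any of the 6 groups. By this rule no barcode could be shared between both groups (0 cells).

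Pups of the C57BL/6 strain, by the labels, received 1 dose of 40 mg/kg 4-hydroxytamoxifen at postnatal day 3, and hearts were dissected 3 days later, at day 6 to 7. The study's methods also name mixed C57BL/6 backgrounds among its mice, without saying whether these groups had them. The part of strain background in the differences was not tested. The iSuRe-HadCre pups carried Cdh5-CreERT2, a tamoxifen-activated Cre whose Cdh5 promoter restricts it to endothelium, together with the iSuRe-HadCre allele in the Rosa26 locus. Their floxed Notch1 alleles are shown in the study's figure and not in the labels, and the genotype of the control pups is not stated in the sources used here. By the labels ECs were sorted as CD31+ MbTomato+ cells, while the design text speaks of presence or absence of the Tomato signal. How many pups entered each group was not found, so every group is 1 sample: no test between groups was possible, and all intervals below cover counting error only.

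NOTCH1 is a receptor that is cut after it binds a ligand on a neighbouring cell; the freed intracellular part enters the nucleus and, with RBPJ and MAML proteins, activates genes such as those of the Hes and Hey families. In growing vessels this signal restrains VEGF-driven sprouting and proliferation and directs ECs towards an arterial identity. Heart ECs are mostly capillary cells specialised for passing fatty acids to cardiomyocytes, with smaller arterial, venous and endocardial groups.

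Depth was close between groups in total, with 3102952 unique molecular identifiers (UMIs, counts of captured mRNA molecules) in iSuRe-HadCre and 3030031 in control, but the median cell had 7322 UMIs and 3003 genes in iSuRe-HadCre and 9100 UMIs and 3221 genes in control. The median own-hashtag count was 57 and 74.5 UMIs. The highest of the other 5 assigned hashtags had a median of 23 and 22 UMIs, so a second assigned tag was often present below its minimum. Asking for an own hashtag at 5 times the next gave only 79 iSuRe-HadCre and 94 control cells. Near the hashtag minimum, 81 iSuRe-HadCre and 40 control cells held 25 to 34 UMIs of their tag, and 112 and 95 further barcodes held 15 to 24 and were left out. Levels are given as CPM, the UMIs of a gene summed over the cells of a group, divided by all gene UMIs of that group and multiplied by 1e+06.

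The endothelial label is described with 10 markers other than Cdh5. This does not test the label, because the cells were selected on Cdh5 and sorted on CD31. Cdh5 itself, the endothelial cadherin, was at 1251 CPM in iSuRe-HadCre and 1310 in control, a level set by the rule. Pecam1, which encodes the sorted antigen CD31, was at 859.5 and 843.9 CPM. All 10 markers had at least 100 UMIs over both groups, a count that 7724 genes reached. Stab2, a marker of liver sinusoidal ECs, was at 5.80 and 9.90 CPM. In the same library it was at 386.5 CPM in iSuRe-HadCre liver ECs and 30.4 in control liver ECs. All 9 liver sinusoidal markers summed to 94.7 CPM in iSuRe-HadCre heart and 117 in control heart. Myh6, the cardiomyocyte myosin, was at 1.93 and 3.63 CPM, but all 14 cardiomyocyte markers summed to 106 CPM in iSuRe-HadCre and 118 in control. In free RNA, the profile of nearly empty droplets, these 14 summed to 596 CPM.

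A second set of tags affected many of these cells. The library also contained 7 tags that the labels give no group, and 121 of the 311 iSuRe-HadCre cells (38.9%) and 91 of the 254 control cells (35.8%) held 25 or more UMIs of at least one of them. Their median depth was 8503 and 10463 UMIs, above the 6747.5 and 8324 UMIs of the other cells, and they supplied 53.1% of the iSuRe-HadCre UMIs and 41.3% of the control UMIs. In the 58 iSuRe-HadCre and 37 control cells with 100 or more such UMIs, Cdh5 fell to 669 and 703 CPM, whereas the summed fibroblast markers reached 1195 and 1419 CPM and the keratinocyte markers 230 and 101 CPM. The main values are therefore also given for the 190 iSuRe-HadCre and 163 control cells below 25 UMIs of all 7 tags, called singly tagged cells here. The name refers to these 7 tags, and lower counts of other assigned hashtags could still be present. In them the keratinocyte markers were at 3.44 and 3.94 CPM and the fibroblast markers at 194 and 109 CPM, and Cdh5 was at 1603 and 1512 CPM. This subset was defined after the data were seen.

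Notch1 was the gene that stood furthest below control among all genes named by size. Over all cells 72 UMIs were counted in iSuRe-HadCre and 417 in control, or 23.2 and 138 CPM, a ratio of 0.169 (95% interval 0.129 to 0.217). In singly tagged cells the level was 13.8 against 155 CPM, a ratio of 0.0886 (0.0533 to 0.139). Free RNA, the profile of nearly empty droplets, held Notch1 at 19.5 CPM, but was estimated to supply 1.82% of the iSuRe-HadCre UMIs and 2.41% of the control UMIs. Notch1 UMIs were counted over the whole gene (ENSMUSG00000026923, GRCm38, chr2:26457903-26516663, minus strand), so the values do not show which exons were lost.

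The same difference was seen cell by cell. In control heart 75 cells had no Notch1 UMI, 74 had 1, 48 had 2 and 57 had 3 or more. In iSuRe-HadCre heart 271 of 311 cells had none, 23 had 1, 7 had 2 and 10 had 3 or more, and of the singly tagged iSuRe-HadCre cells 1 had 3 or more. A Notch1 UMI was found in 12.9% of iSuRe-HadCre cells (95% binomial interval 9.35 to 17.1) and in 70.5% of control cells (64.4 to 76.0). In 120 barcodes of the library with hepatocyte genes and no Cdh5, the share was 8.33% at a median of 5548 UMIs. Of these barcodes 20% held a UMI of Kdr and 1.67% of Dll4, both endothelial genes. Whether they lack Notch1 was not tested, so their share is no measured floor. With every cell thinned to 2000 UMIs the shares were 3.12% in iSuRe-HadCre, 26.0% in control and 1.02% in the hepatocyte-marker barcodes, and none was too shallow to be thinned. In singly tagged iSuRe-HadCre cells the thinned share was 2.32%.

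**Figure D1:**
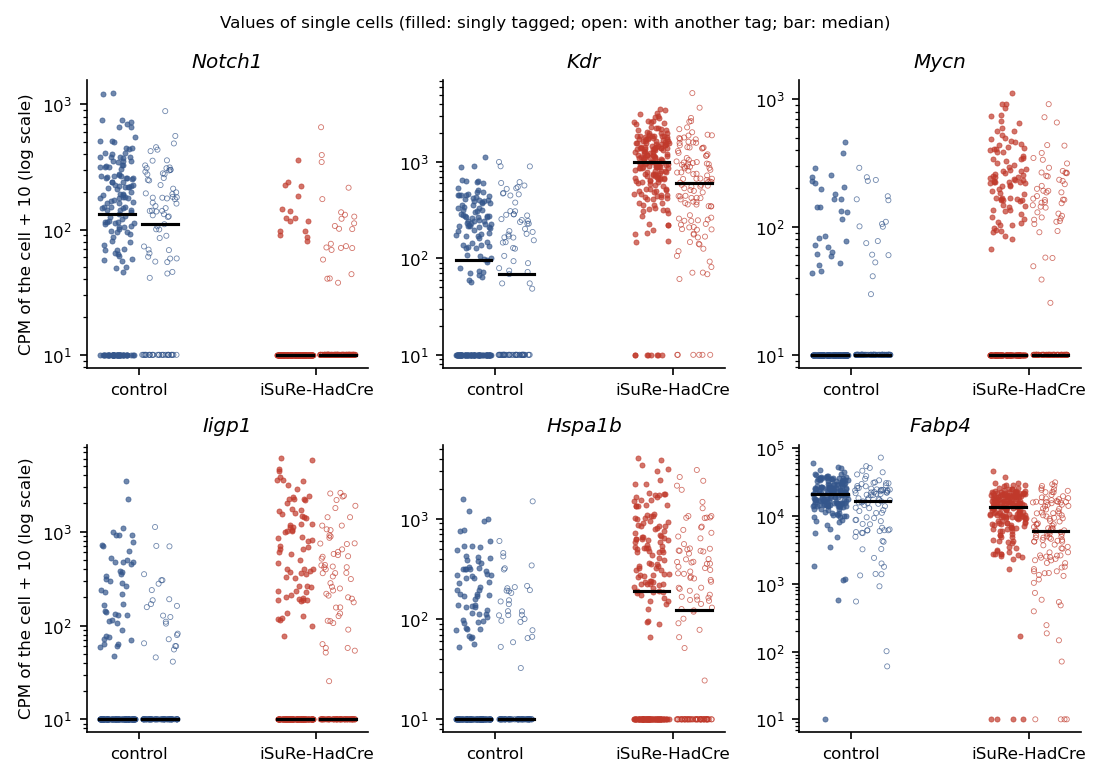
For Notch1, Kdr, Mycn, Iigp1, Hspa1b and Fabp4, each point is 1 cell and gives the CPM of the gene in that cell plus 10, on a log scale; filled points are singly tagged cells, open points are cells with 25 or more UMIs of a tag of no group, and bars are the median of each set. Notch1 was absent from 271 of 311 iSuRe-HadCre cells and from 75 of 254 control cells, the median cell held 860 CPM of Kdr in iSuRe-HadCre and 67.0 in control, and the median cell held 10935 and 19903 CPM of Fabp4.

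The other tested Notch receptors were not lower over all cells. Notch4, the second receptor of ECs, was at 52.9 CPM in iSuRe-HadCre and 47.9 in control, a ratio of 1.10 (0.878 to 1.39). Notch2 was at 20.6 and 14.9 CPM, a ratio of 1.39 (0.934 to 2.08), and at 0.713 in singly tagged cells. Notch3, a receptor of mural cells, had fewer than 100 UMIs and was not tested. Over the 3 tested receptors the median log2 ratio was 0.14, and -0.49 in singly tagged cells.

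Before the gene lists are described, the background of the comparison is needed. Of 7724 genes with at least 100 UMIs over both groups, 193 (2.5%) were at least 2-fold higher in iSuRe-HadCre and 30 (0.388%) at least 2-fold lower; at 1.5-fold these were 674 (8.73%) and 119 (1.54%). The median log2 ratio of all tested genes was 0.12, and 65.5% of the genes had a ratio above 1. List medians are read against 0.12, not 0. Called means past the fold named, with no statement of significance. In singly tagged cells 5426 genes reached 100 UMIs, of which 114 (2.1%) were at least 2-fold higher and 18 (0.332%) lower. Over all 7724 genes, whatever their count in singly tagged cells, 299 were at least 2-fold higher there and 73 lower. The overlaps that follow and the list counts in singly tagged cells use these 7724 genes. Of the 193 higher genes 135 were also at least 2-fold higher in singly tagged cells, and 181 were on the same side of 1. Of the 30 lower genes 12 were also at least 2-fold lower there and 26 kept their side.

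**Figure D2:**
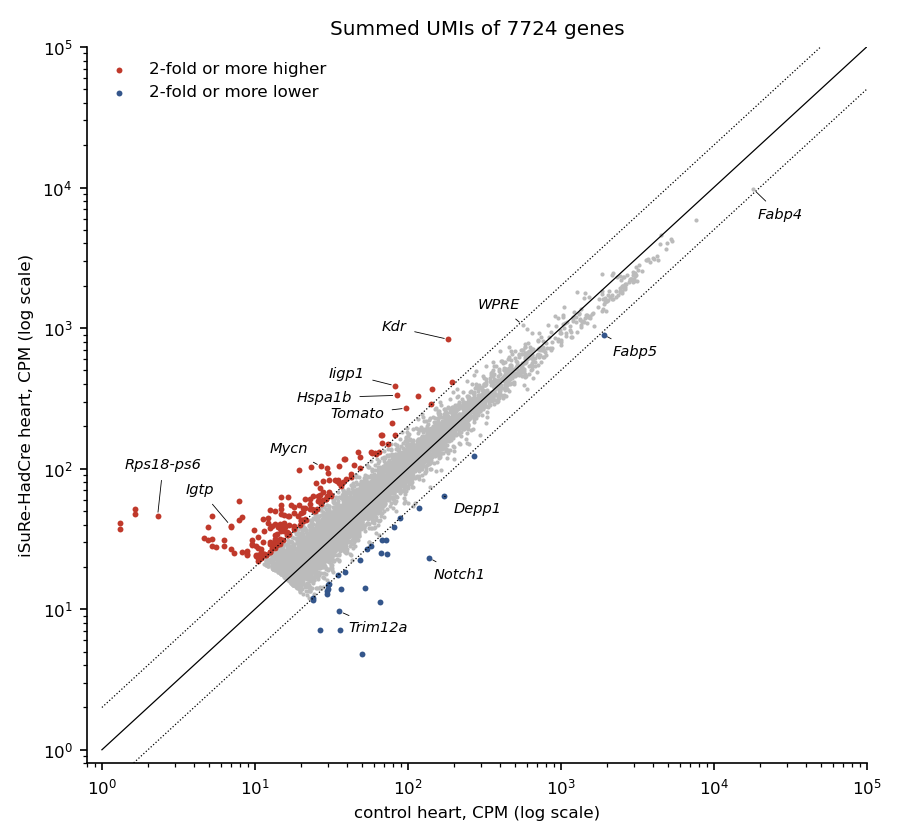
Each of 7724 genes is plotted by its CPM in control heart (x axis) and iSuRe-HadCre heart (y axis), both on log scales; the solid line marks equal levels and dotted lines a 2-fold difference. Red points are the 193 genes at least 2-fold higher and blue points the 30 at least 2-fold lower in iSuRe-HadCre, with Kdr and Iigp1 above the lines and Notch1 and Fabp5 below them.

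Ligands, ligand modifiers and proteases of the Notch pathway stayed near the background. Of 13 tested members 0 were 2-fold higher or lower, and their median log2 ratio was 0.11 (0.24 in singly tagged cells). Dll4, the main sprouting ligand, was at 49.0 and 44.6 CPM, a ratio of 1.10 (0.866 to 1.40). Jag1, a ligand that competes with it, had a ratio of 0.922 (0.735 to 1.16). Mfng, a glycosyltransferase that modifies the receptors, was at 0.732 (0.584 to 0.916), and Adam10, the protease that makes the first cut of an engaged receptor, at 1.34 (1.20 to 1.49).

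Nuclear partners and target genes of Notch likewise had 0 of 12 tested members past 2-fold, with a median log2 ratio of 0.12 and, in singly tagged cells, 0.28. Hes1, a repressor induced by Notch, was at 202 CPM against 249, a ratio of 0.814 (0.731 to 0.907). Hey1 was at 54.8 and 50.2 CPM, a ratio of 1.09 (0.872 to 1.37), and Nrarp, a feedback inhibitor of the pathway, at 50.9 and 49.8 CPM, a ratio of 1.02 (0.812 to 1.29). Efnb2, an arterial ephrin, was at 1.22 (1.11 to 1.35) and at 1.50 in singly tagged cells. Maml3, a coactivator, was the only member past 1.5-fold, with 242 CPM against 161 and a ratio of 1.50 (1.34 to 1.69). In 6 of the 12 the ratio was above the all-gene median.

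Promoters of 3 named genes are printed because 2 ranked second among the higher and lower genes by size (Kdr and Depp1) and 1 was the Notch partner past 1.5-fold (Maml3). Each runs from 250 bases before to 50 bases after the annotated start on the strand of the gene, from RefSeq (GRCm38.p6), with the RBPJ core motif TGGGAA, or its reverse complement TTCCCA, in capitals. The Kdr window is chr5:75978406-75978705 (minus strand), that of Depp1 is chr6:116650434-116650733 (plus strand) and that of Maml3 is chr3:52104957-52105256 (minus strand).
Kdr: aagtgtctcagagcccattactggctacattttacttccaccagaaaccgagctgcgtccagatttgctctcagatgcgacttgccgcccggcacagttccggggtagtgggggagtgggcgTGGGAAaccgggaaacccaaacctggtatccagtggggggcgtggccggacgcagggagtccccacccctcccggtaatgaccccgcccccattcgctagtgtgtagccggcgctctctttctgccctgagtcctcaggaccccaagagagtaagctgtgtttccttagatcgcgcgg
Depp1: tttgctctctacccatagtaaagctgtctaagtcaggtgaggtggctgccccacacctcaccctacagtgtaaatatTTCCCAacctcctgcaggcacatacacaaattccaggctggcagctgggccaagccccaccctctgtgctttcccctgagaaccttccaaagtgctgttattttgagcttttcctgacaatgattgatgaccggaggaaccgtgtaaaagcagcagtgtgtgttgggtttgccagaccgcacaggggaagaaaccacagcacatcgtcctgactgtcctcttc
Maml3: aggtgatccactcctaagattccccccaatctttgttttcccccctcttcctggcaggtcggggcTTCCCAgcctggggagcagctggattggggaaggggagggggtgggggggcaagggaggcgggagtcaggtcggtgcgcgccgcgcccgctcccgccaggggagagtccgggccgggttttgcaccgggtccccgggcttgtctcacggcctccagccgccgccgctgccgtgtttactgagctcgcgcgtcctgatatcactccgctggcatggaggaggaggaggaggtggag
Each window held 1 match, forward in Kdr and reverse in Depp1 and Maml3. The motif was found on either strand in 8397 of 32851 RefSeq promoters of the same length (25.6%). A RefSeq promoter was retrieved here for 11 of the 18 Notch nuclear partners and targets, and 5 of these 11 genes held a match. Hes1 and Hey1 were not among the 11. The 5 are counted by gene, and some genes had more than 1 window, so their share is not comparable with 25.6%. A match describes the letters and is not evidence of binding. The 3 genes were chosen for printing after their values were seen.

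Kdr, the main signalling receptor for VEGF in ECs, ranked second among the genes named as higher by size. It was at 831 CPM in iSuRe-HadCre and 184 in control, a ratio of 4.51 (4.12 to 4.96), and at 1083 and 215 CPM in singly tagged cells, a ratio of 5.03 (4.49 to 5.64). A Kdr UMI was present in 95.5% of iSuRe-HadCre cells and 55.1% of control cells, and after thinning in 75.2% and 24.0%. The median cell held 860 CPM of Kdr in iSuRe-HadCre and 67.0 in control, with upper quartiles of 1410 and 257 CPM. Free RNA held Kdr at 159 CPM. In the hepatocyte-marker barcodes the thinned share was 9.48%. Kdr lies on chr5:75932827-75978458.

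The remaining VEGF genes differed less. Of 8 tested members 1, Kdr, was at least 2-fold higher. Flt4, the receptor for VEGFC, was at 41.9 and 26.7 CPM, a ratio of 1.57 (1.18 to 2.09). The coreceptors Nrp1 and Nrp2 were at 1.23 (1.15 to 1.31) and 1.31 (1.21 to 1.42). Flt1, a decoy receptor, was equal in both groups at 565 and 566 CPM. Vegfc, a ligand made by ECs, was lower at 82.8 against 125 CPM, a ratio of 0.662 (0.563 to 0.778). In the tip-cell list, genes of the leading cells of sprouts, 0 of 14 passed 2-fold and 9 were above the all-gene median. Apln was at 1.06 (0.892 to 1.25), Pdgfb at 1.16 (1.04 to 1.31) and Nid2 at 1.56 (1.35 to 1.80), and in singly tagged cells 12 of the 14 were above the all-gene median of those cells.

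**Figure D3:**
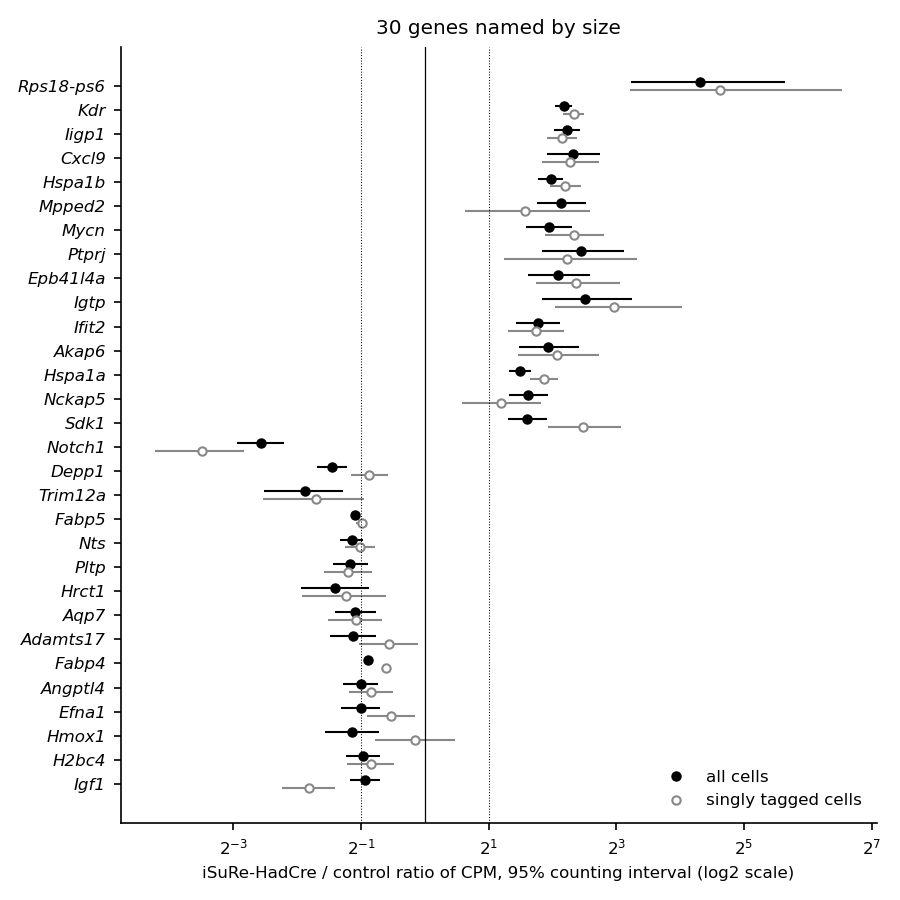
Ratios of CPM between iSuRe-HadCre and control heart are shown on a log2 scale for the 15 genes highest and 15 lowest by size, with 95% counting intervals; black points are all cells and open grey points singly tagged cells, and dotted lines mark 2-fold. All 15 higher genes stayed above 1 in singly tagged cells, while Hmox1 moved to 0.90 with an interval that includes 1.

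Cell cycle genes of the G2 and M phases were higher as a group. Of 43 tested members 15 were at least 2-fold higher and 0 lower, 31 were at least 1.5-fold higher, and 42 lay above the all-gene median; the list median was 0.82. In singly tagged cells 14 were at least 2-fold higher and the median was 0.80. Mki67, the standard proliferation marker, was at 174 CPM against 68.0, a ratio of 2.56 (2.18 to 3.02). Cenpf, a kinetochore protein, was at 212 and 79.2 CPM, a ratio of 2.68 (2.31 to 3.12), and Cenpe, a kinetochore motor, at 3.09 (2.43 to 3.96). Top2a, the topoisomerase of dividing cells, was at 244 and 123 CPM, a ratio of 1.98 (1.75 to 2.25).

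Cells rich in G2/M genes were a minority in both groups. Cells with more than 0.3% of their UMIs in the list made up 18.6% of iSuRe-HadCre (14.5 to 23.4) and 12.2% of control (8.45 to 16.9), and 12.6% and 7.98% of singly tagged cells, so the intervals overlapped in both cases. A Mki67 UMI was in 10.9% and 6.20% of thinned cells. S-phase genes differed less: 0 of 35 passed 2-fold, the median was 0.24, and it was 0.04 in singly tagged cells, below the all-gene median of those cells (0.13). Pcna, the replication clamp, was at 1.19 (1.01 to 1.40). Inhibitors of cyclin-dependent kinases had 0 of 5 members past 2-fold and a median of 0.57. Cdkn1a, which encodes p21, was at 244 and 161 CPM, a ratio of 1.51 (1.35 to 1.70). Cdkn1c was at 1.45 (1.35 to 1.56) over all cells and 0.852 in singly tagged cells. The p53 targets as a list stood at 0.10, with 0 of 18 past 2-fold.

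Mycn, a growth-promoting transcription factor of the Myc family, was at 104 CPM in iSuRe-HadCre and 27.1 in control, a ratio of 3.83 (3.00 to 4.95), and 5.03 (3.69 to 6.98) in singly tagged cells. It had a UMI in 46.0% and 18.5% of cells, and in 19.1% and 4.52% after thinning. Mycn was alone among 16 tested members of the Myc list in passing 2-fold over all cells. The list median was 0.16, with 9 members above the all-gene median, and -0.10 in singly tagged cells, where Srm, a polyamine enzyme, was at 0.415. Ccnd1 and Ccnd2, cyclins that drive entry into S phase, were at 1.37 (1.28 to 1.47) and 1.67 (1.50 to 1.85), and Odc1, a polyamine enzyme induced by Myc, at 1.64 (1.45 to 1.85). Ribosomal protein genes went the other way: 0 of 80 lay above the all-gene median, and their median was -0.36 (-0.60 in singly tagged cells). Together they took 137991 CPM in iSuRe-HadCre and 178679 in control. None of the 80 was 2-fold lower over all cells.

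Interferon-stimulated genes were higher as a group. Of 23 tested members 8 were at least 2-fold higher, 0 lower, 22 above the all-gene median, and the median was 0.81 (0.78 in singly tagged cells, with 7 at least 2-fold higher). Iigp1, an interferon-induced GTPase, was at 388 and 82.8 CPM, a ratio of 4.69 (4.09 to 5.39). Igtp, of the same GTPase family, was at 39.3 and 6.93 CPM, a ratio of 5.67 (3.55 to 9.49), and Ifit2, an antiviral protein, at 3.41 (2.69 to 4.36). Ly6e was the 1 member below the all-gene median, at 0.964 (0.902 to 1.03).

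Expression was unequal between cells. Iigp1 had a UMI in 43.7% of iSuRe-HadCre and 29.1% of control cells, and in 28.8% and 12.3% after thinning. Its 3 highest cells gave 14.6% of the iSuRe-HadCre UMIs and 20.7% of the control UMIs. Cxcl9, an interferon-induced chemokine named by size and not part of the list, was at 97.3 and 19.5 CPM, a ratio of 5.00 (3.77 to 6.72), but 3 cells gave 72.9% of its control UMIs. Over the 14 settings tried its ratio ranged from 4.48 to 13.5, the highest without cells holding endocardial genes.

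Genes of antigen presentation by MHC class I were higher in part. Of 14 tested 4 were at least 2-fold higher, 0 lower, and the median was 0.60 (0.73 in singly tagged cells). H2-K1, a classical class I molecule, was at 370 and 144 CPM, a ratio of 2.56 (2.29 to 2.87), while H2-D1, the other classical molecule, was at 564 and 650.5 CPM, a ratio of 0.867 (0.812 to 0.925). Psmb9, a subunit of the immunoproteasome, was at 2.48 (1.97 to 3.16), H2-Q4 at 2.66 (2.03 to 3.53) and H2-Q7 at 3.67 (2.54 to 5.42). B2m, the shared light chain, was at 1.59 (1.49 to 1.70). Class I genes are near-identical copies of one another, so reads could be shared between them and each single value is uncertain; Psmb9 also overlaps Tap1 on the opposite strand.

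Several of these genes are neighbours on chromosome 17. H2-K1 lies at chr17:33996017-34000347, Psmb9 at chr17:34181987-34187764, Hspa1b at chr17:34956436-34959238, Hspa1a at chr17:34969190-34972156 and H2-Q7 at chr17:35439155-35443773. H2-D1, at chr17:35262730-35267499, lies between Hspa1a and H2-Q7 and did not share their direction. Hspa1b and Hspa1a, heat shock chaperones with near-identical sequences, were at 332 and 84.8 CPM (ratio 3.92, 3.41 to 4.51) and at 327 and 117 CPM (ratio 2.81, 2.49 to 3.18). They were the only 2 of 19 immediate early and heat shock genes past 2-fold. The list median was 0.27. Fos and Jun, early genes that respond to tissue dissociation, were at 1.08 (1.02 to 1.15) and 0.913 (0.867 to 0.961).

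Over all cells, capillary and fatty acid genes had the lowest medians of the 27 pathway lists after the ribosomal proteins. In singly tagged cells the Notch receptors (-0.49) and glycolysis genes (-0.41) lay lower. Of 18 capillary genes 2 were at least 2-fold lower and 1, Kdr, higher, with a median of -0.28. In singly tagged cells that median was -0.0046. Fabp4, the fatty acid carrier that is the most abundant of these transcripts, was at 9772 CPM against 18100, a ratio of 0.540 (0.532 to 0.548), and at 0.653 (0.642 to 0.664) in singly tagged cells. Its median over cells was 10935 CPM in iSuRe-HadCre and 19903 in control. Fabp5, a related carrier, was at 896 and 1913 CPM, a ratio of 0.468 (0.448 to 0.490), and at 0.503 in singly tagged cells. Free RNA held Fabp5 at 1272 CPM.

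The fatty acid list had 1 of 12 members, Fabp5, at least 2-fold lower and a median of -0.30, or -0.06 in singly tagged cells. Angptl4, an inhibitor of lipoprotein lipase, was at 54.1 and 108 CPM, a ratio of 0.50 (0.413 to 0.604). Aqp7, a channel for glycerol that is in the capillary list and not in the fatty acid list, was at 38.4 and 81.5 CPM, a ratio of 0.470 (0.375 to 0.588), and kept that value in singly tagged cells (0.472). Cd36, the fatty acid transporter, was at 0.775 (0.746 to 0.805) over all cells and 0.937 in singly tagged cells. Gpihbp1, which holds lipoprotein lipase on the capillary wall, was at 0.812 (0.772 to 0.855) and 1.01. Pltp, a phospholipid transfer protein named by size, was at 52.5 and 118 CPM, a ratio of 0.445 (0.367 to 0.537).

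Among arterial genes 1 of 20, Depp1, was at least 2-fold lower and 0 higher, with a median of -0.11 and of -0.01 in singly tagged cells. Depp1, a FOXO-regulated gene found in developing vessels, was at 63.5 CPM against 174, a ratio of 0.366 (0.309 to 0.432), and at 0.548 (0.447 to 0.670) in singly tagged cells, where it no longer passed 2-fold. Gja5, an arterial connexin, was at 24.5 and 20.5 CPM, a ratio of 1.20 (0.845 to 1.70). Cxcl12, an arterial chemokine, was at 1806 and 1283 CPM, a ratio of 1.41 (1.35 to 1.47). Sox17, a transcription factor of arterial ECs, was at 0.932 (0.835 to 1.04). Efna1, an ephrin named by size, was at 0.497 (0.402 to 0.613).

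Venous genes had a median of -0.15 with 1 of 11 at least 2-fold lower. That gene was Vcam1, a leukocyte adhesion molecule, at 26.7 and 54.1 CPM and a ratio of 0.494 (0.375 to 0.647). Nr2f2, the venous fate regulator, was at 0.772 (0.664 to 0.898). Endocardial genes had 1 of 10 at least 2-fold higher, Postn at 2.39 (1.76 to 3.27), and a median of 0.07. In singly tagged cells 0 were 2-fold higher, Postn was at 1.51 (0.819 to 2.83) and the median was 0.49. Over all cells Npr3, an endocardial receptor, was at 1.07 (0.873 to 1.32).

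The makeup of the groups by these markers was close. Cells with 2 or more UMIs over 4 endocardial genes were 6.43% of iSuRe-HadCre (3.97 to 9.76) and 6.69% of control (3.95 to 10.5). Cells with 2 or more UMIs over 5 large-vessel genes were 21.5% (17.1 to 26.5) and 24.8% (19.6 to 30.6), and 9.94% and 9.72% after thinning. Without the cells holding large-vessel genes the Notch1, Kdr and Fabp4 differences kept their direction, as they did in all 14 settings tried. For these genes, named by size, that was a condition of naming in every setting except singly tagged cells. It is therefore no check of makeup, and the part of makeup in these differences was not tested.

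**Figure D4:**
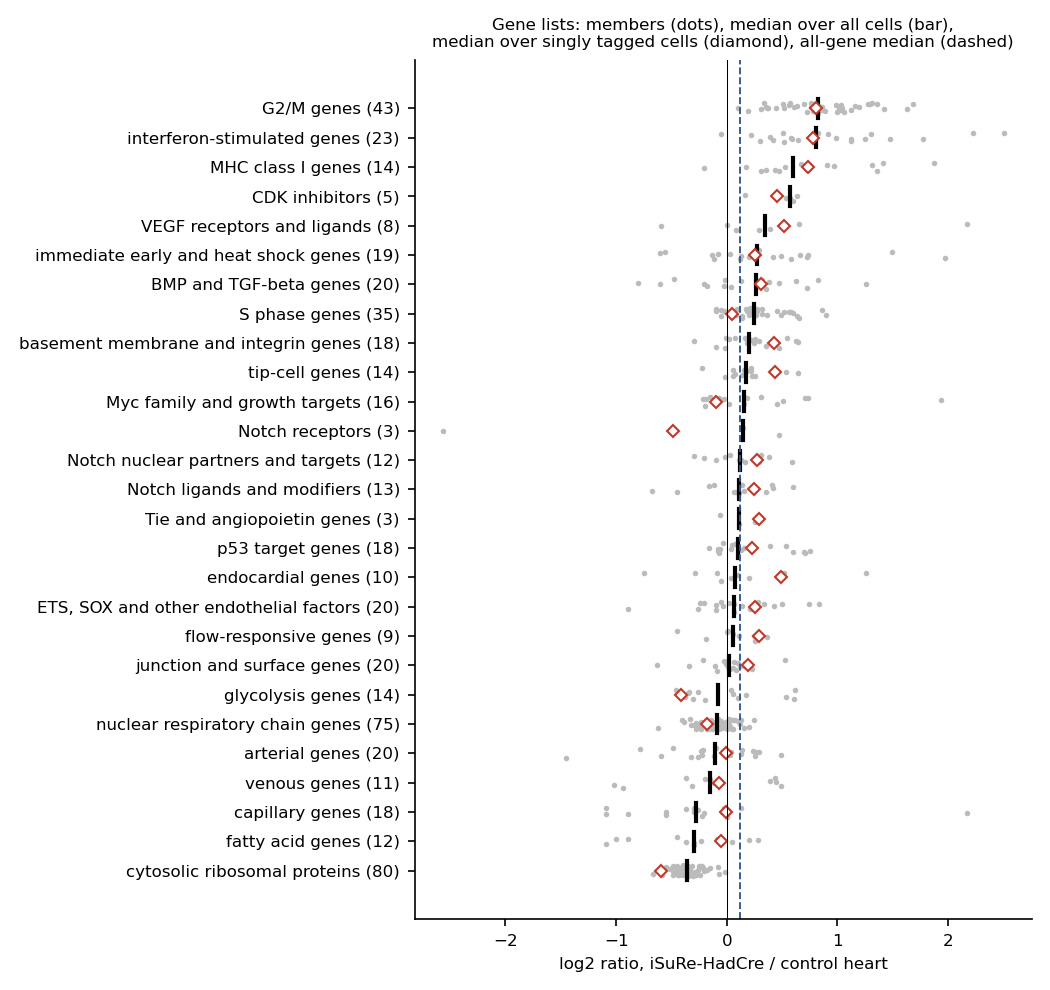
Grey dots are the log2 ratios of tested members of 27 gene lists (number tested in brackets), black bars their median over all cells, open diamonds the median over singly tagged cells, the dashed line the median of all genes (0.12) and the thin line 0. G2/M, interferon and MHC class I lists lie to the right in both sets of cells, ribosomal proteins to the left, and the capillary and fatty acid medians move towards 0 in singly tagged cells.

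The other lists lay close to the background, and their members are given by counts. BMP and TGF-beta genes had 1 of 20 at least 2-fold higher, Tgfb2, which was at 2.39 (1.90 to 3.02) over all cells and 1.31 in singly tagged cells. ETS, SOX and other endothelial factors had 0 of 20 past 2-fold and a median of 0.07; Erg, a master regulator of ECs, was at 1.10 (0.989 to 1.23). Junction and surface genes had 0 of 20 past 2-fold and a median of 0.02. Flow-responsive genes had 0 of 9, with Klf2, the shear-induced factor, at 933 and 1277 CPM and a ratio of 0.731 (0.696 to 0.767). Tie and angiopoietin genes had 0 of 3 past 2-fold and a median of 0.11. Basement membrane and integrin genes had 0 of 18 and a median of 0.20. Glycolysis genes had 0 of 14 and a median of -0.08, or -0.41 in singly tagged cells, and nuclear respiratory chain genes 0 of 75 and a median of -0.08.

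Among the 15 genes named as highest by size, Rps18-ps6 had the largest ratio. It was at 45.8 CPM against 2.31, a ratio of 19.8 (9.37 to 50.2), with 142 UMIs in 99 of 311 iSuRe-HadCre cells and 7 UMIs in 4 of 254 control cells. Rps18-ps6 (chr13:97760072-97760632) is a copy of the ribosomal gene Rps18, and reads shared with it make the value uncertain; Rps18 itself was at 1317 and 1973 CPM. Epb41l4a, a membrane skeleton protein, was at 63.2 and 14.9 CPM, a ratio of 4.25 (3.06 to 6.02), and 5.18 in singly tagged cells. Akap6, an anchor of protein kinase A, was at 3.83 (2.79 to 5.33).

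Among the genes ranked high by size, some changed level when cells were left out. Ptprj, a receptor phosphatase, was at 45.1 and 8.25 CPM, but 3 cells gave 49.3% of its iSuRe-HadCre UMIs and its ratio was 1.31 without the cells holding large-vessel genes. Mpped2 fell from 102 CPM over all iSuRe-HadCre cells to 23.4 in singly tagged cells, and its ratio from 4.37 to 2.97. Nckap5 likewise fell from 118 to 46.1 CPM. Sdk1, an adhesion molecule, stayed at 104 CPM in singly tagged cells with a ratio of 5.59 (3.82 to 8.42).

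Larger ratios outside the naming rule, picked out here after their values were seen, rested on few cells. Opcml, Ccl4, Cd74 and Runx1 had ratios from 28.3 to 31.2, with a UMI in 3.22%, 0.965%, 9.65% and 5.79% of iSuRe-HadCre cells. For Ccl4, a chemokine, 3 cells gave 100% of the iSuRe-HadCre UMIs. Ccl5, another chemokine, was at 4.83 and 50.2 CPM, a ratio of 0.0964, and 3 cells gave 99.3% of its control UMIs.

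Among the lower genes, Trim12a, a member of the TRIM family, was at 9.67 and 35.6 CPM, a ratio of 0.271 (0.175 to 0.410), and kept 0.306 in singly tagged cells. Hrct1 was at 13.9 and 36.6 CPM, a ratio of 0.378 (0.260 to 0.542). Nts, which encodes neurotensin, was at 122 and 271 CPM, a ratio of 0.452 (0.399 to 0.511). Igf1, insulin-like growth factor, was at 73.5 and 140 CPM over all cells and at 42.6 and 150 CPM in singly tagged cells, a ratio of 0.285 (0.213 to 0.377). Over all cells 3 cells gave 41.2% of the Igf1 UMIs of iSuRe-HadCre. Hmox1, haem oxygenase, was at 22.2 and 48.8 CPM over all cells, with 48.0% of its control UMIs from 3 cells, and at a ratio of 0.90 (0.579 to 1.39) in singly tagged cells. Adamts17 and the histone gene H2bc4 were at 0.460 (0.357 to 0.588) and 0.511 (0.424 to 0.615).

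The reporter sequences were measured in both groups. WPRE, a sequence in the transcript of the allele, was at 1055 CPM in iSuRe-HadCre and 562 in control, a ratio of 1.88 (1.77 to 1.99), and Tomato at 269 and 97.7 CPM, a ratio of 2.76 (2.41 to 3.16). WPRE passed the limit of 0.5 on the log scale in 93.9% of iSuRe-HadCre cells and 89.8% of control cells. Cre and ERT2 had ratios of 1.27 (0.949 to 1.69) and 1.02 (0.802 to 1.29). The Sv40-pA sequence was at 31.3 and 72.3 CPM, a ratio of 0.433 (0.337 to 0.552). Free RNA held WPRE at 160 CPM.

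Markers of other cells and of sex also differed. Neutrophil markers summed to 58.0 CPM in iSuRe-HadCre and 167 in control, and mural markers to 70.3 and 145 CPM, but to 42.6 and 33.8 and to 53.6 and 61.3 CPM in singly tagged cells. Other marker sums stayed apart: epicardial markers were at 171 and 99.7 CPM (179 and 120 in singly tagged cells), lymphatic markers at 59.6 and 38.6 (72.9 and 38.3) and erythroid markers at 18.4 and 5.61 (11 and 3.94). Y-linked genes summed to 159 and 71.9 CPM, and all 3 tested ones were at least 1.5-fold higher, whereas the sex of the pups is not in the labels. The part of all these markers in the other differences was not tested. The free RNA shares given above were estimated from hepatocyte genes.

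Values of other groups in the library were found by the same rule. The iSuRe-Cre heart shares its control with the comparison above, so its values are only set beside it; its free RNA share was 15.4%. Notch1 was at 12.6 CPM in iSuRe-Cre heart, at 30.7 in iSuRe-HadCre liver and 160 in control liver. The liver pair, 76 and 54 cells, had a Notch1 ratio of 0.192 (0.114 to 0.309). Its makeup differed, with Stab2 at 386.5 CPM in iSuRe-HadCre liver and 30.4 in control liver. Cells with large-vessel genes, counted as in heart, were 55.3% (43.4 to 66.7) and 74.1% (60.3 to 85.0). Cells with endocardial genes were 15.8% (8.43 to 26.0) and 27.8% (16.5 to 41.6). Kdr was at 480 CPM in iSuRe-Cre heart and at 411 and 231 CPM in the liver pair, a ratio of 1.78 (1.45 to 2.20). H2-K1 was at 524 CPM in iSuRe-Cre heart and at 416 and 144 CPM in the liver pair, a ratio of 2.88 (2.27 to 3.70). Iigp1 was at 543 CPM in iSuRe-Cre heart and at 284 and 151 CPM in the liver pair.

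Rps18-ps6 was at 46.9 CPM in iSuRe-HadCre liver, 3.20 in control liver and 1.08 in iSuRe-Cre heart. Trim12a was at 7.32 CPM in iSuRe-HadCre liver, 28.8 in control liver and 24.4 in iSuRe-Cre heart. Hspa1b was at 83.3 CPM in iSuRe-Cre heart, near control heart, and at 130 and 60.9 CPM in the liver pair. Notch4 was at 3.73 CPM in iSuRe-Cre heart, Hey1 at 12 and Gja5 at 2.77, against 52.9, 54.8 and 24.5 CPM in iSuRe-HadCre heart. Fabp4 was at 13495 CPM in iSuRe-Cre heart and at 4586 and 3703 CPM in the liver pair, a ratio of 1.24 (1.17 to 1.31). Mycn was at 45.0 CPM in iSuRe-Cre heart and at 26.4 and 9.61 CPM in the liver pair.

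Some genes went the other way in the liver pair, and for others the liver interval included 1. Depp1 was at 46.9 CPM in iSuRe-HadCre liver and 16.0 in control liver, a ratio of 2.92 (1.40 to 6.67), against 0.366 in heart. Mpped2 had a liver ratio of 0.562 (0.350 to 0.890) and Sdk1 of 0.595 (0.470 to 0.750), and both were higher in iSuRe-HadCre heart. Akap6 was at 0.659 (0.401 to 1.07), Mki67 at 1.05 (0.770 to 1.44) and Cenpf at 1.11 (0.789 to 1.56) in the liver pair, all with intervals that included 1. The difference between heart and liver ratios was not tested, nor was the part of the differing makeup of the liver pair in them.

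**Figure D5:**
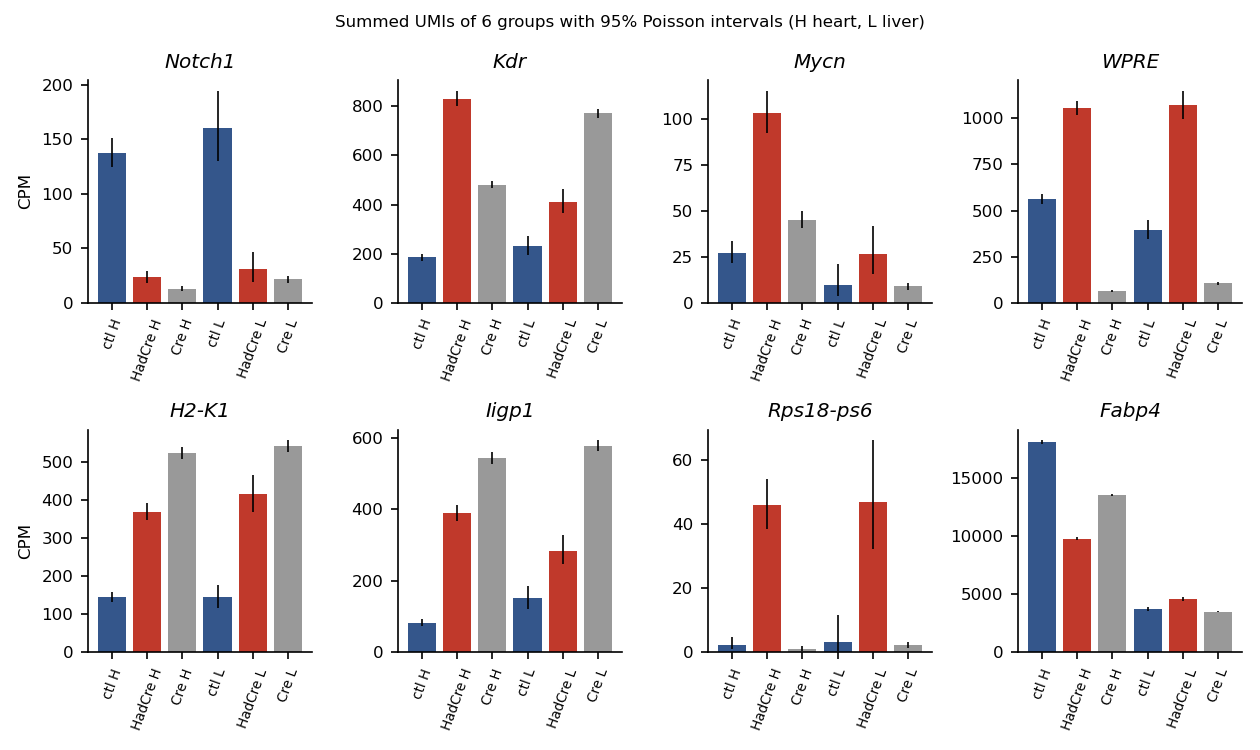
Bars give the CPM of 8 features in the 6 groups of the library (H heart, L liver, ctl control), with 95% Poisson intervals of the summed UMIs, and the axis of each panel starts at 0. Notch1 was low in the 4 groups labelled iSuRe-HadCre or iSuRe-Cre, and Rps18-ps6 was high only in both iSuRe-HadCre groups among the 6 shown. Fabp4 was higher in all heart groups than in all liver groups. WPRE was at 562 CPM in control heart and 63.5 in iSuRe-Cre heart, and the genotype of the control pups is not stated.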

How the data were processed

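Liver and heart ECs were hashtagged, pooled and sequenced as 1 10x Genomics library. By the methods and processing notes, the authors mapped the reads to a GRCm38 reference extended by the transgenes, using Cell Ranger 7.1.0. The deposited matrix is unfiltered: it holds raw UMI counts per barcode for 21951 gene features. Depth was 3102952 and 3030031 UMIs in the 2 groups. Barcodes were kept with 2000 to 75000 gene UMIs, more than 500 genes, mitochondrial and haemoglobin shares each below 5%, and a natural log of 1 plus 10000 times the Cdh5 share above 0.9. The hashtag minimum was 25 UMIs, or 140 for iSuRe-Cre liver. Doublets were handled through hashtags only, and no clusters were made.

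Counts were summed per group and scaled to CPM. Ratios carry exact conditional, levels exact Poisson and shares exact binomial 95% intervals (scipy 1.17.1), for counting error only. UMIs of 1 cell are not independent, so the real error of a group is larger. Genes were tested, meaning described, from 100 UMIs over both groups. Named genes were members of 27 gene lists and, by size, the 15 highest and lowest by log2 ratio with 10 CPM added. Genes named by size needed a UMI in at least 10% of the cells of the higher group. Their ratio also had to keep its direction in every planned choice of cells, cell weighting, scaling and free RNA. Cdh5, mitochondrial, haemoglobin and transgene features were left out. The members and lists were chosen with earlier results of these data known. Free RNA was taken from barcodes of 10 to 100 UMIs. The interval and the 2-fold size rule were tested on simulated data. The 2-fold size, the UMI minimum, the choice of cells, the scaling and free RNA were varied. Positions are from GENCODE on GRCm38 and promoters from RefSeq.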

Additional observations from a re-analysis of the deposited data

Results flagged for a closer look

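Tags that the labels give no group carried signal in cells of both heart groups, outside the measurements compared. At least 25 UMIs of CMO302 were found in 107 of the heart cells, of CMO301 in 66, of CMO304 in 42, of CMO305 in 33 and of CMO303 in 32. HTO308 reached that count in 25 heart cells and HTO304 in 11. Over all barcodes within the quality limits the same count was reached by between 378 (HTO304) and 8798 (CMO302) barcodes. In 76 iSuRe-HadCre and 45 control cells the own hashtag was at or below the highest of these tags. What these tags marked is not given in the sources used here.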

How the results depend on the processing

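None of the ratios of Notch1, the other genes named by size, WPRE and Tomato crossed 1 under the 14 alternatives tried for them. For Notch1 and the other genes named by size this was a condition of naming in every alternative except singly tagged cells. Only that alternative could have gone otherwise for these genes. Among list members Notch2, Cdkn1c and Gpihbp1 did cross 1 in singly tagged cells, at 0.713, 0.852 and 1.01. List medians near 0 did change sign, among them the Notch receptors (-0.49 to 0.29), the arterial (-0.42 to 0.03), venous (-0.34 to 0.12) and endocardial genes (-0.08 to 0.61). The alternative without cells holding 25 or more UMIs of a tag of no group was chosen after seeing the data. It moved the Notch1 ratio to 0.0886, the WPRE ratio to 2.17, and the genes at least 2-fold higher and lower to 114 and 18. With each cell weighted equally the Notch1 ratio was 0.109. The WPRE ratio was 1.76 at a hashtag minimum of 50 UMIs, 1.73 with no Cdh5 limit and 1.73 under median-ratio scaling. The count of higher genes was 100 with the own hashtag 5 times the next, 710 and 21 at a minimum of 20 and 500 UMIs, and 674 and 52 at 1.5-fold and 3-fold. The count of lower genes was 19 without the 5% deepest cells, 152 and 4 at those minimums, and 119 and 7 at those folds. The changes with a fold or minimum follow from their construction, and the cause of the others was not tested. Of the main results 60 values moved by less than their limits and 18 by more, and of the others 684 and 100. With 1 and 50 CPM added, 11 and 10 of the 15 higher genes by size were shared, and the same numbers of the lower genes. No paired analysis was possible because each group is 1 sample. Depth limits genes under 100 UMIs, which were not described as tested.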
